A study of Homo sapiens with 6 samples.

Results

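Transcripts of 35 genes of protein folding, the unfolded protein response (UPR) and degradation in the endoplasmic reticulum (ER) were followed through knockdown of PRMT5, an arginine methyltransferase. The members were chosen by gene symbol, 34 of the 35 were measured among 12768 genes, and DERL3, a derlin of the degradation channel, was not analysed here. The cells were LNCaP, a human prostate carcinoma line, stably carrying a doxycycline-inducible hairpin against PRMT5 mRNA. Doxycycline was given for 4 days to 3 knockdown cultures, and 3 cultures with the same hairpin were kept for 4 days without it. The labels name a single hairpin plasmid and no doxycycline-treated culture lacking it, so knockdown, doxycycline and any other effect of the hairpin cannot be told apart.

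Secreted and membrane proteins enter the ER through the SEC61 channel, where chaperones and disulfide isomerases fold them. Proteins that fail to fold are drawn back out to the cytosol for destruction, a route called ER-associated degradation (ERAD). When unfolded proteins build up, the sensors IRE1 (gene ERN1), ATF6 and PERK (gene EIF2AK3) start the UPR, in which the factors ATF6, spliced XBP1 and ATF4 raise chaperone, ERAD and amino acid supply genes. Luminal prostate cells secrete large amounts of protein and depend on this machinery.

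The libraries held 7911853 to 15831938 counted reads. PRMT5 was at 87.8 ± 4.64 CPM (reads of a gene scaled for library size) without knockdown and at 10.4 ± 0.60 CPM with it (SD, n = 3 each), so each library lay on the side its label gives. All 9 luminal markers checked were measured, with FOLH1 at 2383 CPM and KRT8 at 205 CPM without knockdown, while of 8 markers of basal cells, fibroblasts, leukocytes and endothelium COL1A1 (19.2 CPM) and DCN (1.597 CPM) were measured and the other 6 were not analysed here. The luminal markers KLK3, KLK2, TMPRSS2 and KRT18 had log2 fold changes of -0.46, -0.66, -0.45 and -0.24, not called on group alone and lower with the block (edgeR adjusted p = 0.00046, 0.0023, 0.0017 and 0.027), and their part in the ER values was not tested. Replicate 2 of both groups lay apart from replicates 1 and 3 across the table, and the values that this touches are given with the genes below. Nothing beyond the series' word that the replicates are biological says whether cultures were seeded independently, so the p-values measure the spread between these cultures.

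ER genes shifted little and unevenly after PRMT5 knockdown. The co-chaperone gene DNAJB9 rose, and the reductase gene DNAJC10 and the transcription factor gene XBP1 fell, while the major chaperones HSPA5, HSP90B1, CALR and CANX passed no test. In edgeR's quasi-likelihood fit across all genes 1 member was higher and 2 were lower at an adjusted p of 0.05. This is 8.82% of the 34, where 1.48% of all genes were called (0.337% higher and 1.14% lower). All 3 calls were lost when replicate 1 or 3 of either group was left out, taken singly, and held without replicate 2 of either group. The median log2 fold change was -0.08 over the members and 0.00 (-0.0021) over all genes, and 24 of the 34 members (70.6%) lay below 0, against 50.4% of all genes. Of the 34, 8 had an unadjusted p under 0.05 (14% of all genes did), 14 were lower in all 3 numbered pairs (22.8% of all genes) and 4 were higher in all 3 (20.9%). With the replicate number as a block 1 member was higher and 5 were lower (17.6%), where 8.31% of all genes were called (3.21% higher and 5.1% lower). The 3 members added by the block were HERPUD1, EDEM1 and SEL1L, all of ERAD. The authors' deposited table lists 4 members under a false discovery rate of 0.05, namely DNAJB9, DNAJC10, XBP1 and EDEM1, where it lists 3.7% of all genes.

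**Figure D1:**
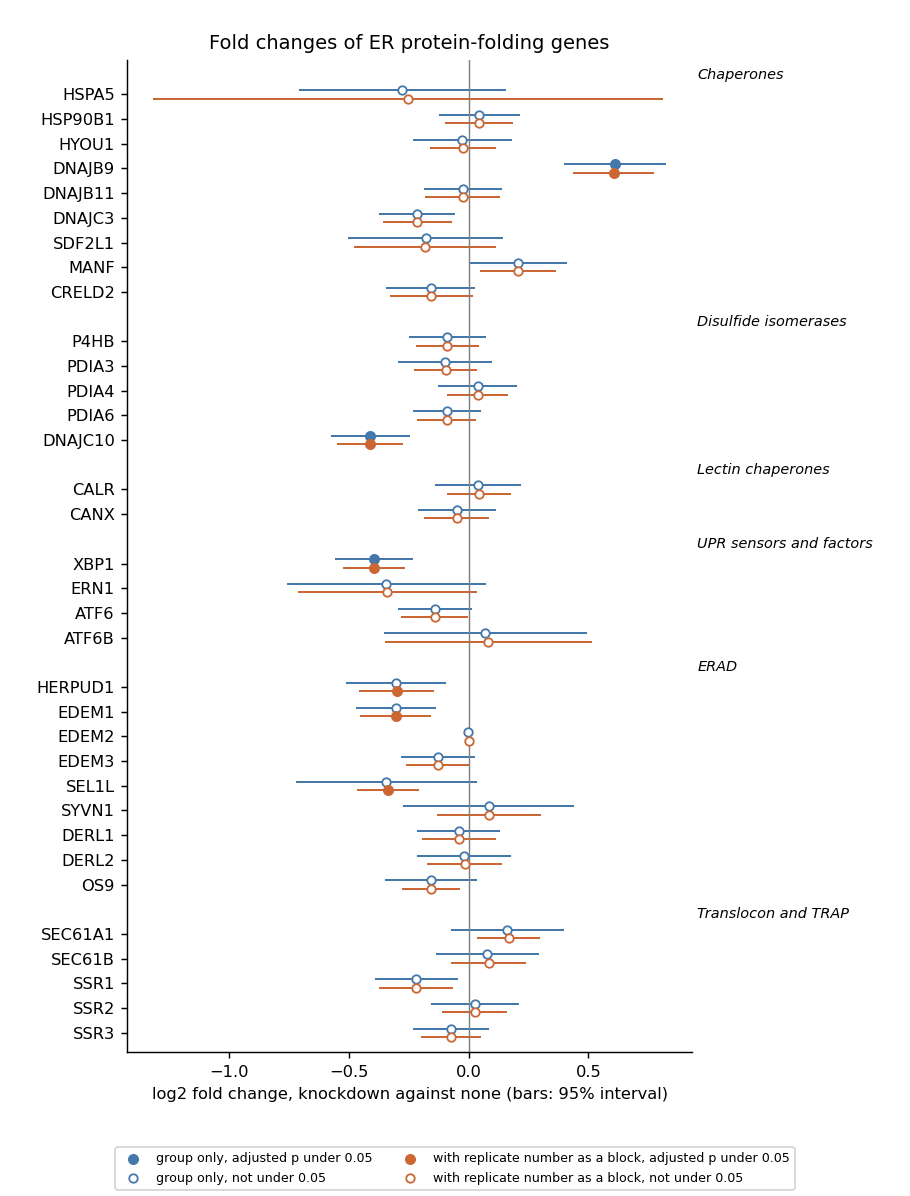
Log2 fold changes of the 34 measured members (knockdown against none), each with its 95% interval, from a fit on group alone and another that adds replicate number, ordered by role. Filled symbols have an adjusted p under 0.05. DNAJB9 alone lies to the right among the filled symbols, and DNAJC10 and XBP1 lie to the left in both fits. No interval is drawn for EDEM2, whose estimate is almost exactly 0.

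The changes were small for most members. Of 33 members with an interval, 29 had a 95% interval of the fold change that stayed inside 1.5-fold in both directions, where 75.5% of all genes had. These shares are not like for like, since a narrower interval stays inside the limit more readily. The median SE was 0.083 over the members and 0.111 over all genes, and the part of read depth per gene in this was not tested. The exceptions were DNAJB9, whose interval extends above 1.5-fold higher, and HSPA5, ERN1 and SEL1L, whose intervals extend beyond 1.5-fold lower. The median coefficient of variation between replicates was 6.1% without knockdown and 5.55% with it over the members, and 9.17% and 8.17% over all genes. Together the members took 0.672%, 0.689% and 0.670% of the reads of the cultures without knockdown and 0.646%, 0.642% and 0.644% of those with it. The 3 knockdown values lie below the 3 others without overlap. In bulk RNA, fewer cells with a transcript and less transcript per cell cannot be told apart.

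**Figure D2:**
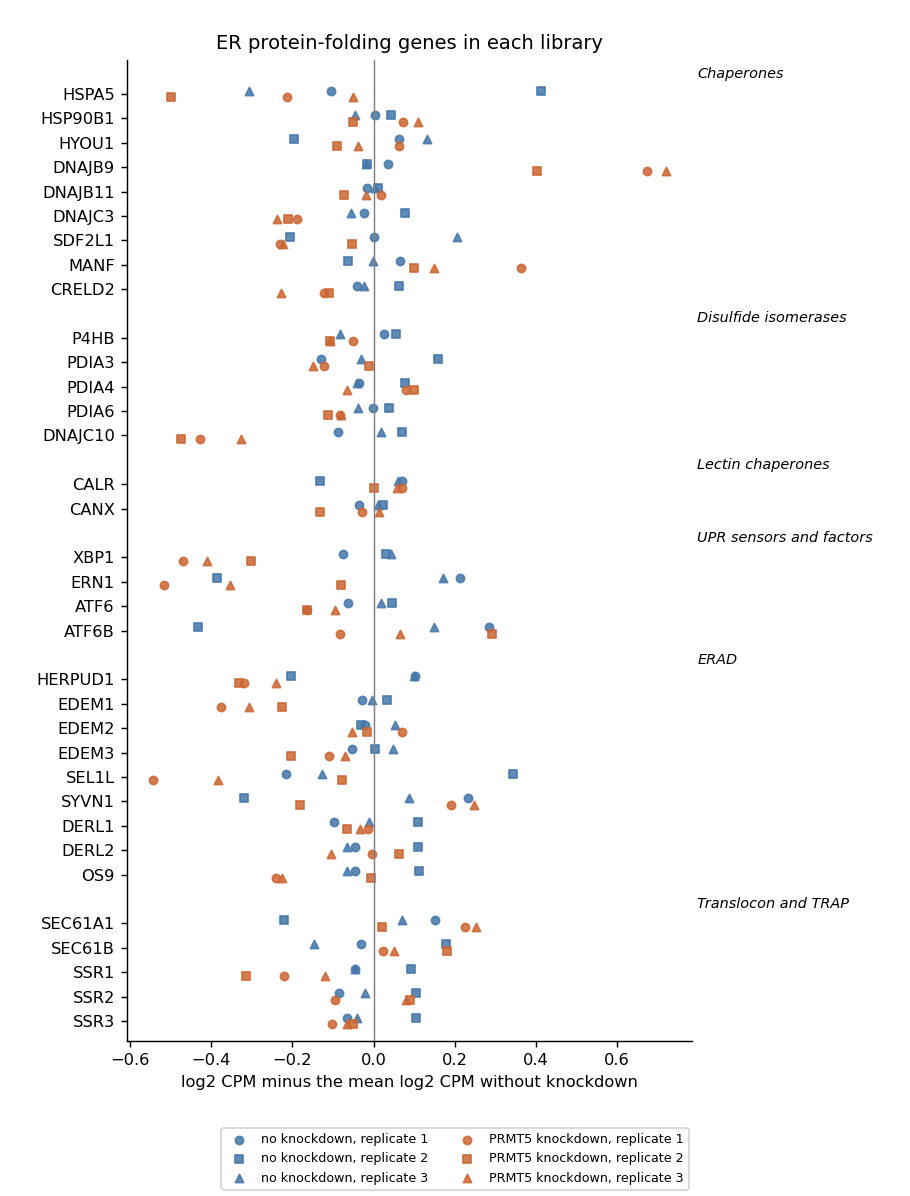
Log2 CPM of each member in each of the 6 libraries, as the difference from the mean without knockdown. Blue symbols are cultures without knockdown, orange symbols knockdown cultures, and the shape gives the replicate number. DNAJB9 lies to the right in all 3 knockdown cultures, and the square symbols (replicate 2) are the outermost for HSPA5, ATF6B and SEL1L without knockdown.

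Lumenal chaperones and their helpers were read first. DNAJB9 encodes ERdj4, an ER-resident J-protein that helps the chaperone BiP, is induced by spliced XBP1 and is known to hold IRE1 inactive. Its level was 54.7, 52.8 and 52.7 CPM without knockdown and 85.6, 70.8 and 88.4 CPM with it. The knockdown cultures were all higher, replicate 2 least. DNAJB9 rose by 0.61 on the log2 scale (SE 0.096, 95% interval 0.40 to 0.82, edgeR adjusted p = 0.014). Without replicate 1 or 3 of either group, taken singly, its adjusted p was between 0.061 and 0.10 and its log2 fold change between 0.55 and 0.63. The gene lies on chromosome 7 (108569568 to 108574850, plus strand, GRCh38, GENCODE 29). Its exons share 183 bases with THAP5 and 99 bases with PNPLA8 on the opposite strand, and the strand setting of the counting is not given in the sources used here. THAP5 was at 118 ± 12.6 CPM without knockdown and 122 ± 1.48 CPM with it (SD, n = 3 each), with a log2 fold change of 0.05, and PNPLA8 had one of 0.14 (edgeR adjusted p = 0.84 and 0.48).

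The chaperone BiP, encoded by HSPA5, is the classic reporter of the UPR, and its transcript did not move one way. HSPA5 was at 302, 432 and 262 CPM without knockdown and at 280, 230 and 313 CPM with it. The groups overlap, and the highest and the lowest of the 6 values are both from replicate 2. The fitted difference was -0.28 on the log2 scale (SE 0.19, 95% interval -0.71 to 0.16, edgeR adjusted p = 0.57). Between equally numbered cultures the log2 difference was -0.11, -0.91 and 0.26, and without replicate 2 of both groups, a fit without the block chosen after seeing the data, the log2 fold change was 0.07. HSPA5 replicate 2 lay above the mean of replicates 1 and 3 by 0.62 without knockdown and below it by 0.37 (-0.37) with knockdown, on the log2 scale.

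The remaining members of this role did not pass. HSP90B1, the ER form of HSP90 (GRP94), was at 707, 727 and 683 CPM without knockdown and 742, 682 and 761 CPM with it, a log2 fold change of 0.04 (95% interval -0.12 to 0.21). DNAJC3, a J-protein known as p58IPK that helps BiP and restrains eIF2alpha kinases, was at 101, 108 and 98.7 CPM and then at 89.9, 88.5 and 86.9 CPM, with no overlap (log2 fold change -0.22, edgeR adjusted p = 0.21). MANF, a secreted stress protein that binds BiP, was at 60.7, 55.4 and 57.8 CPM and then at 74.7, 62.1 and 64.3 CPM, also without overlap but on the higher side (log2 fold change 0.21, edgeR adjusted p = 0.35). MANF and DNAJC3 are 2 of the 12 members (35.3%) whose groups did not overlap, 2 with knockdown higher and 10 with it lower, where 19.8% of all genes did not overlap (8.22% higher and 11.6% lower). SDF2L1, a partner of the BiP cycle, was at 12.01, 10.3 and 13.9 CPM and then at 10.2, 11.6 and 10.2 CPM, with overlap (log2 fold change -0.18, 95% interval -0.50 to 0.14). HYOU1, the BiP exchange factor also called GRP170, had a log2 fold change of -0.03, the J-protein gene DNAJB11 one of -0.02, and CRELD2, a disulfide isomerase-like stress protein gene, one of -0.16.

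The start of many ER chaperone genes carries the ER stress response element (ERSE), CCAAT and CCACG with any 9 bases between them, which ATF6 together with NF-Y reads. Promoter windows from 250 bases before to 50 after the start (RefSeq, GRCh38.p14) were found for 32 of the 34 measured members, and not for DERL1 and PDIA3. On either strand, the element lies in the windows of 7 of these 32 genes (21.9%), in 0.169% of the 9454 tested genes that have a window, and in 0.0769% of all 35116 windows. The members were chosen as genes of this pathway, so their larger share is no test, for this element or the related ones below. The matches are shown because they are the element through which the UPR is known to reach these genes, with the fixed letters in capitals and each read in the direction of the element. HSP90B1 has 2 matches, and a match that recurs in overlapping windows of 1 gene is given once.
HSPA5: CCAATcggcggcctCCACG
HSP90B1, farther from the start: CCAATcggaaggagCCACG
HSP90B1, nearer the start: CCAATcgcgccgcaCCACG
CRELD2: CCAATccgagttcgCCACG
PDIA6: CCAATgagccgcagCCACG
CALR: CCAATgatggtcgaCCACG
CANX: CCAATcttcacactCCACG
XBP1: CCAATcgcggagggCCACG
Of these 7 genes, 1 (XBP1) was lower and none higher. Their log2 fold changes ran from -0.39 (XBP1) to 0.04 (HSP90B1) with a median of -0.09, close to the -0.08 of all members. The related element ERSE-II, ATTGG and CCACG with any 1 base between them, lies in the windows of HYOU1, SDF2L1 and HERPUD1 (9.38% of 32, against 0.138% of tested genes and 0.0541% of all windows), whose log2 fold changes were -0.03, -0.18 and -0.30. The XBP1-type element TGACGTGG lies in those of HYOU1, DNAJC10 and SSR3 (9.38%, against 1.23% of tested genes and 0.729% of all windows), of which DNAJC10 was lower. In HYOU1 the ERSE-II and TGACGTGG matches overlap. The amino acid response element, searched as TGATG and AA with any 1 base between them, lies in the window of HERPUD1 alone. This is 3.12% of the 32, against 2.57% of tested genes and 3.62% of all windows, and the match is not marked in the HERPUD1 window below.

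Promoter windows of 4 members are printed to set the sequence beside genes that behaved differently. HSPA5 (chr9:125241294-125241593, minus strand) varied between replicates, XBP1 (chr22:28800520-28800819, minus strand) fell, HERPUD1 (chr16:56931892-56932191, plus strand) was called lower with the block and not on group alone, and DNAJB9 (chr7:108569624-108569923, plus strand) rose. The 4 windows read in the direction of its gene (GRCh38.p14), and capitals mark the fixed letters of an ERSE or ERSE-II match. For XBP1, the first of 2 windows in the table is shown.
HSPA5: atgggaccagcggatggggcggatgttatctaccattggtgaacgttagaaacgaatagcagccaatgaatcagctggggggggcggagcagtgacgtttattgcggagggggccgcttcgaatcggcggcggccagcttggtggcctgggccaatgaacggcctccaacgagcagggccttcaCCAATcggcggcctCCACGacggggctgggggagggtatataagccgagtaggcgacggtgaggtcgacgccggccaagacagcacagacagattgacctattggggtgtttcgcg
XBP1: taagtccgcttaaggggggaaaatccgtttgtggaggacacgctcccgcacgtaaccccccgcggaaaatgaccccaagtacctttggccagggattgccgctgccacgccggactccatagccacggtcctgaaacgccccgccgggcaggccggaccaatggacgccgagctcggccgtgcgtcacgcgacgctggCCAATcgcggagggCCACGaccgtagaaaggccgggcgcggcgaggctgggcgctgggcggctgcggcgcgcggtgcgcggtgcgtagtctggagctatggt
HERPUD1: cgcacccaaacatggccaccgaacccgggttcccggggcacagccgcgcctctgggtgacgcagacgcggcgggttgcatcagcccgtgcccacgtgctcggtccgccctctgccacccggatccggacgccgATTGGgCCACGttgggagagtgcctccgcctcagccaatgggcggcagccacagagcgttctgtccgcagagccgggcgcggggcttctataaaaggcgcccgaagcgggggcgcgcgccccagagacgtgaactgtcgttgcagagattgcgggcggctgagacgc
DNAJB9: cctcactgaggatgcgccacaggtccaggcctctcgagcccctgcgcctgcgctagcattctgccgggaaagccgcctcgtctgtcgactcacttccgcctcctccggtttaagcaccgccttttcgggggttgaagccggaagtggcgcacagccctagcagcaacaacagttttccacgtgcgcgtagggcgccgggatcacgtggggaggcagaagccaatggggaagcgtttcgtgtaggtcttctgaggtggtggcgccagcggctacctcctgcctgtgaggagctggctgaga
None of the elements searched, spelled as above, is in the DNAJB9 window, which says only that these letters are not there.

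Disulfide isomerases make, break and rearrange the disulfide bonds of secreted proteins. DNAJC10 encodes ERdj5, a J-domain reductase that unlocks disulfides of misfolded proteins so that ERAD can remove them. It was at 160, 178 and 172 CPM without knockdown and 126, 122 and 135 CPM with it. All knockdown cultures were lower. DNAJC10 fell by 0.41 on the log2 scale (SE 0.075, 95% interval -0.58 to -0.24, edgeR adjusted p = 0.027). Without replicate 1 or 3 of either group, taken singly, the adjusted p was between 0.070 and 0.19 and the log2 fold change between -0.45 and -0.39. The gene lies on chromosome 2 (182716041 to 182794464, plus strand, GRCh38), and 338 bases of its exons hold the processed pseudogene RPL31P15.

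The other isomerases changed by less. P4HB, the founding family member, was at 455, 464 and 422 CPM and then at 431, 415 and 415 CPM, with overlap (log2 fold change -0.09). PDIA3, which works on glycoproteins with the lectin chaperones, had a log2 fold change of -0.10, PDIA4 one of 0.04 and PDIA6 one of -0.09, with edgeR adjusted p from 0.57 to 0.86 for these 4 genes. PDIA6 did not overlap between groups, at 216 to 228 CPM without knockdown and 206 to 210 CPM with it. The lectin chaperones, calreticulin (CALR) and calnexin (CANX), hold glycoproteins that are still folding. CALR was at 743, 645 and 738 CPM without knockdown and 742, 708 and 736 CPM with it, and CANX at 693, 722 and 716 CPM and then 697, 648 and 716 CPM. For both genes the groups overlap, and the 95% intervals of the log2 fold change were -0.14 to 0.22 and -0.21 to 0.12.

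Among sensors and factors of the UPR, XBP1 fell. Its mRNA is spliced by IRE1 to encode an active transcription factor for ERAD and secretory genes, and the table holds 1 count per gene, so spliced and unspliced forms are summed. XBP1 was at 176, 190 and 191 CPM without knockdown and at 134, 150 and 140 CPM with it. All knockdown cultures were lower, with a log2 fold change of -0.39 (SE 0.073, 95% interval -0.56 to -0.23, edgeR adjusted p = 0.029). Without replicate 1 or 3 of either group, taken singly, the adjusted p was between 0.083 and 0.22 and the log2 fold change between -0.43 and -0.35. The gene lies on chromosome 22 (28794555 to 28800597, minus strand, GRCh38) and shares no exon bases with another GENCODE 29 gene.

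Of the sensor genes among the members none was called on group alone. ERN1, the IRE1 kinase and RNase that splices XBP1, was at 15.8, 10.2 and 15.3 CPM without knockdown and at 9.31, 12.8 and 10.5 CPM with it. Replicate 2 is the lowest without knockdown and the highest with it, so the groups overlap (log2 fold change -0.34, SE 0.19, edgeR adjusted p = 0.45). Without replicate 2 of both groups, on 4 libraries, ERN1 had a log2 fold change of -0.65 with the block (edgeR adjusted p = 0.00163) and of -0.64 without it (0.00156), the latter fit being added after seeing the data. The pair left out was the only one with ERN1 higher (log2 differences of -0.73, 0.31 and -0.53 for pairs 1, 2 and 3). These fits called 2391 and 2141 genes in all, and ERN1 was called in only 2 of 16 fits. Without no-knockdown replicate 2 alone it was -0.52 (edgeR adjusted p = 0.14). ATF6, which is cut in the Golgi to free a transcription factor, was at 108, 117 and 115 CPM and then at 101, 101 and 106 CPM, without overlap (log2 fold change -0.14, 95% interval -0.30 to 0.01, edgeR adjusted p = 0.41). Its relative ATF6B had 16.3, 9.73 and 14.8 CPM and then 12.5, 16.4 and 13.9 CPM. The row for ATF6B lists exons on chromosome 6 and 3 alternative haplotypes of it, so reads from copies of this gene may be split or lost and its level is uncertain.

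**Figure D3:**
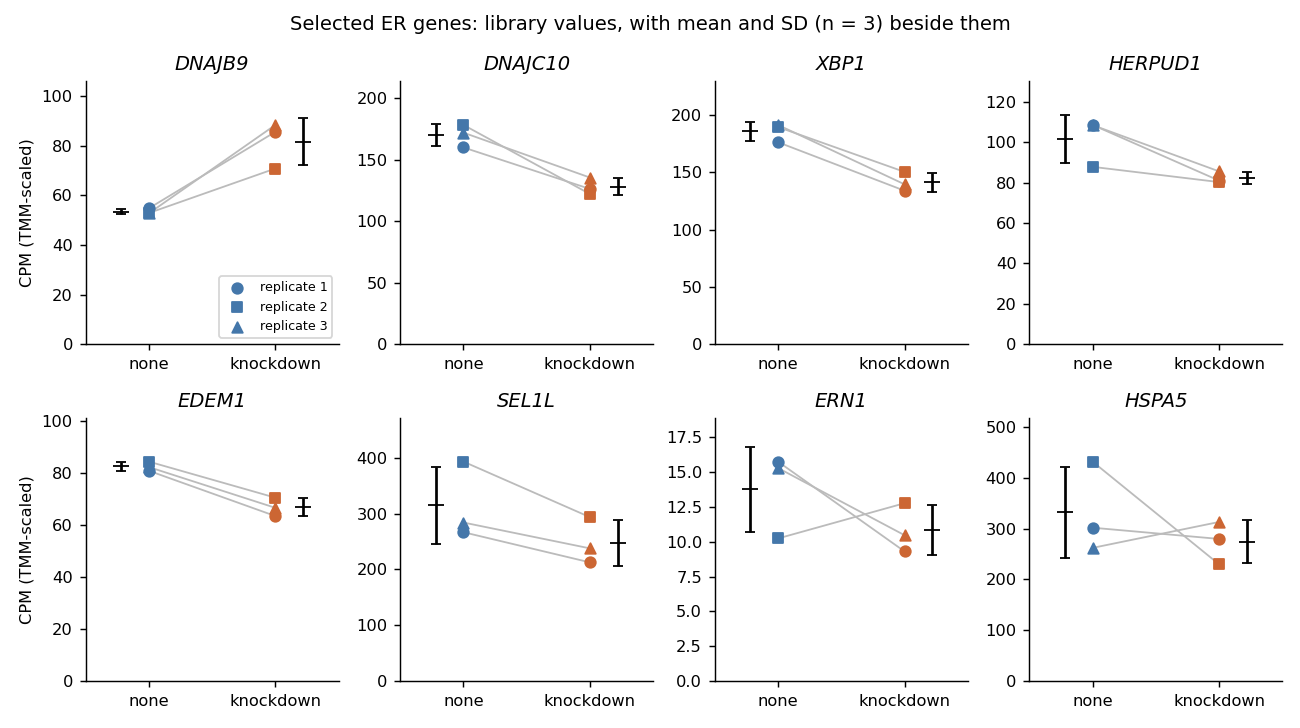
TMM-scaled CPM of 8 members in the 6 libraries, with equally numbered cultures joined by grey lines and the mean and SD (n = 3) beside each group. The lines of DNAJB9 all go up and those of DNAJC10, XBP1, HERPUD1, EDEM1 and SEL1L all go down, while those of ERN1 and HSPA5 cross.

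None of the ERAD members was called on group alone. Of 9 measured, 8 had a log2 fold change below 0 (EDEM2 by less than its second decimal), with a median of -0.13, and 3 were lower with the replicate number as a block. Across all genes 50.4% lay below 0 and 5.1% were called lower with the block. HERPUD1, an ER membrane protein that assembles the ERAD ligase complex, was at 109, 87.9 and 109 CPM without knockdown and 81.0, 80.3 and 85.6 CPM with it, without overlap. It differed by -0.30 on the log2 scale (SE 0.094; edgeR adjusted p = 0.17, or 0.020 with the block). Without no-knockdown replicate 2, its lowest control, the log2 fold change was -0.40 (edgeR adjusted p = 0.021). EDEM1, which trims mannose from misfolded glycoproteins and is a target of spliced XBP1, was at 80.8, 84.3 and 82.2 CPM and then at 63.3, 70.4 and 66.5 CPM, also without overlap (log2 fold change -0.30, SE 0.075, edgeR adjusted p = 0.089, and 0.014 with the block).

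SEL1L encodes the adaptor that carries the ligase HRD1. It was at 267, 393 and 284 CPM without knockdown and at 212, 293 and 238 CPM with it, and replicate 2 was the highest in both groups, so the groups overlap. Each knockdown culture was below its equally numbered control, by 0.33, 0.42 and 0.26 on the log2 scale (differences of -0.33, -0.42 and -0.26). On group alone the fitted difference was -0.34 on the log2 scale (SE 0.17, edgeR adjusted p = 0.40), and with the block it was -0.34 with a smaller error (SE 0.060, edgeR adjusted p = 0.0029). Without no-knockdown replicate 2, its highest value, the difference on group alone was -0.15 (edgeR adjusted p = 0.63). SYVN1, which encodes HRD1 itself, was at 23.7, 15.97 and 21.3 CPM and then at 23.0, 17.6 and 23.9 CPM, lowest in replicate 2 of both groups (log2 fold change 0.08, 95% interval -0.27 to 0.44). OS9, a lectin that hands glycoproteins to this complex, was at 241, 269 and 238 CPM and then at 210, 248 and 213 CPM, again with replicate 2 highest in both (log2 fold change -0.16, edgeR adjusted p = 0.46).

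The remaining ERAD members were not called in either fit. EDEM3, a mannosidase like EDEM1, was at 157 to 169 CPM without knockdown and 142 to 155 CPM with it (log2 fold change -0.13). EDEM2, the mannosidase that starts the trimming, was at 25.9 ± 0.85 and 25.9 ± 1.15 CPM (SD, n = 3 each). The derlins DERL1 and DERL2, rhomboid-like proteins of the export channel, had log2 fold changes of -0.04 and -0.02, with 95% intervals of -0.21 to 0.13 and -0.22 to 0.18.

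Genes of protein entry into the ER showed no called member among 5. SEC61A1, the pore of the translocon, was at 400, 309 and 378 CPM without knockdown and 422, 366 and 430 CPM with it, lowest in replicate 2 of both groups, and was higher in each numbered pair (log2 fold change 0.16, 95% interval -0.07 to 0.40, edgeR adjusted p = 0.54). SSR1, a subunit of the TRAP complex that helps signal sequences insert, was at 138, 152 and 138 CPM and then at 122, 114 and 131 CPM, without overlap (log2 fold change -0.22, edgeR adjusted p = 0.24). The channel subunit gene SEC61B and the TRAP subunit genes SSR2 and SSR3 had log2 fold changes of 0.08, 0.03 and -0.08.

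Scaled by transcript length, the members ran from the most abundant transcripts of the cell to rare ones. Levels as RPKM (CPM divided by gene length in kilobases) without knockdown were 371 ± 28.8 for CALR, 247 ± 7.73 for HSP90B1, 173 ± 8.64 for P4HB and 143 ± 3.03 for CANX (SD, n = 3 each), and neighbours in this order did not overlap between cultures. From SEC61B at 117 ± 13.7 RPKM to SSR3 at 45.2 ± 2.95 RPKM each gene overlapped its neighbour, XBP1 at 102 ± 4.53 and HSPA5 at 83.7 ± 22.4 RPKM among them. DNAJB9 stood 24th of the 34 at 21.0 ± 0.45 RPKM without knockdown and at 32.1 ± 3.72 RPKM with it. SYVN1 at 6.66 ± 1.29 and ERN1 at 3.44 ± 0.77 RPKM were the lowest besides ATF6B, whose length in the table sums 4 copies of the gene region and gives no usable RPKM. The level of CALR exceeds that of 99.4% of all genes on this scale, and that of ERN1 exceeds that of 21.7%.

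**Figure D4:**
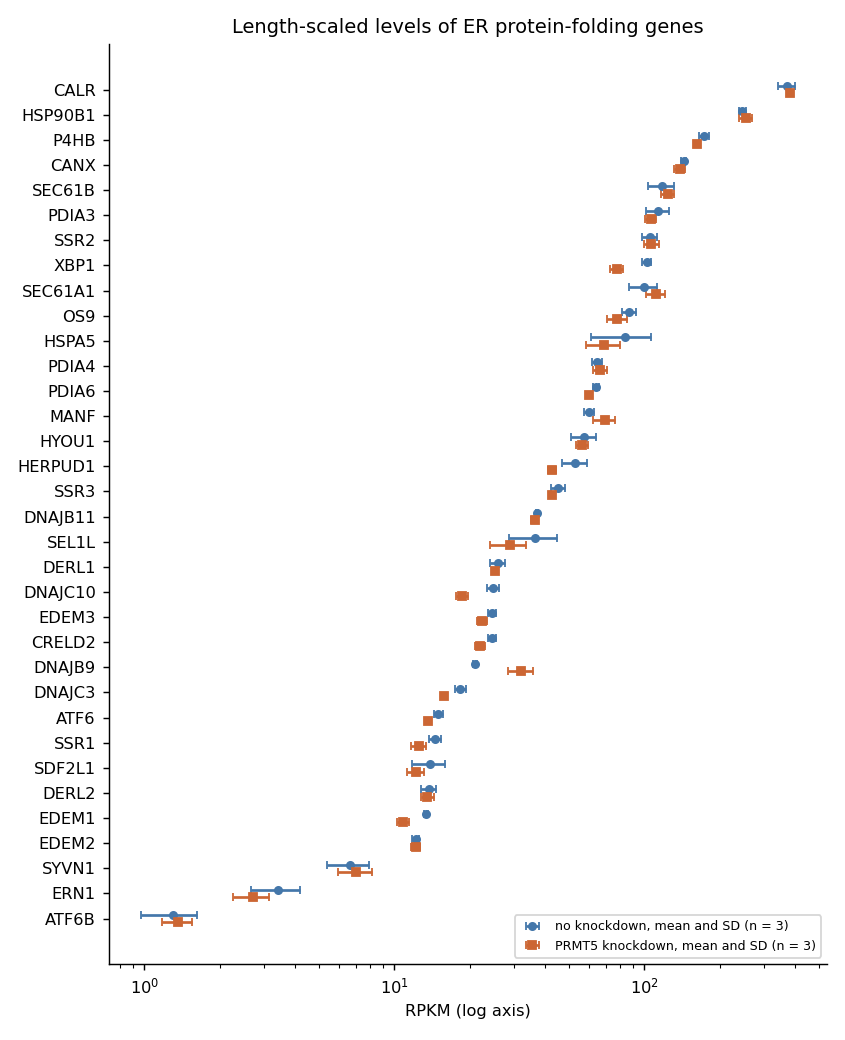
Length-scaled levels (RPKM, log axis) of the 34 members in cultures without knockdown and with PRMT5 knockdown, as means with SD (n = 3 each), ordered by the level without knockdown. CALR is highest and ATF6B lowest, and DNAJB9 lies at 32.1 RPKM with knockdown against 21.0 without it. ATF6B is understated because its length in the table covers several copies.

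Several members were set apart in replicate 2. The deviation of replicate 2 from the mean of replicates 1 and 3 had the same sign in both groups for 20 of the 34 members (58.8%) and for 63.3% of all genes. Across the 34 members the deviations in both groups correlated by a Pearson r of -0.01 (-0.0121, Spearman 0.24), and across all genes by 0.46 (Spearman 0.41), where the genes of 1 library share its depth and are not independent. SEL1L, OS9 and PDIA3 were higher in replicate 2 of both groups, and SYVN1, SEC61A1 and HYOU1 were lower. HSPA5, ERN1, ATF6B and SDF2L1 turned in opposite directions in the 2 groups. Without HSPA5 the Pearson r across members was 0.15. The part of handling or culture state in these deviations was not tested.

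A 7-base sequence, TTCCCTA, had been singled out in these same libraries because genes holding it in the 3′ untranslated region (UTR) lay lower, so nothing here tests it. In GENCODE 29 it occurs in a 3′ UTR of 1488 of 11139 genes measured (13.4%), and their fold changes had a median of -0.05 (log2), against 0.00 (0.0040) for genes without it. It occurs in that of 6 of the 34 members (17.6%), which are shown with 8 bases on either side because XBP1 and SEL1L are among them, in the sense of the mRNA with the match in capitals.
XBP1: tggtagttTTCCCTAaaatactt
SEL1L: ctctgattTTCCCTAgaggccaa
ERN1: tgacttttTTCCCTActattaac
DNAJC3: aatgctttTTCCCTAaaaaatgt
EDEM3: ctcaatatTTCCCTAgttaagaa
HYOU1: actccctgTTCCCTAcccatata
Over these 6 members the median was -0.28, and over the remaining ones -0.04. DNAJC10, HERPUD1 and EDEM1 do not hold the sequence. Whether the match bears on XBP1 was not tested.

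Genes that work beside the members were read from lists of the same pathway. Of 12 genes of the PERK and ATF4 branch 5 were lower and none higher (7 lower with the block), all 12 lay below 0, and their median log2 fold change was -0.44. Across all genes 1.14% were lower on group alone, 5.1% were lower with the block, and 50.4% lay below 0. This list was drawn up with earlier results of these libraries known, so its counts are a description and not a test. EIF2AK3, which encodes the sensor PERK, was at 78.1, 78.5 and 84.4 CPM without knockdown and 49.9, 55.5 and 54.6 CPM with it, without overlap (log2 fold change -0.59, edgeR adjusted p = 0.0076). ASNS, the asparagine synthetase gene, fell by 0.60, the transcription factor gene ATF4 by 0.47, the stress regulator gene NUPR1 by 0.54 and CEBPG, a dimer partner of ATF4, by 0.41 on the log2 scale. In this order their edgeR adjusted p were 0.0089, 0.013, 0.020 and 0.036. DDIT3, the pro-apoptotic factor CHOP, was at 41.6 and 30.0 CPM on average (log2 fold change -0.47, edgeR adjusted p = 0.067, and 0.0026 with the block). CHAC1 was at 10.2 and 6.70 CPM on average, with overlap between the groups (log2 fold change -0.60, edgeR adjusted p = 0.34, and 0.035 with the block).

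In the other lists few genes passed, where 1.48% of all genes were called on group alone and 8.31% with the block. Of 29 further ERAD genes 14 lay above 0 and 15 below, with a median of -0.02 on the log2 scale, and 1 was higher and none lower (1 higher and 2 lower with the block). The higher one was ERLIN2, a membrane scaffold that directs activated IP3 receptors to degradation, at 344, 430 and 341 CPM without knockdown and 546, 627 and 549 CPM with it (log2 fold change 0.63, SE 0.11, edgeR adjusted p = 0.020). Its replicate 2 was the highest in both groups, and the groups do not overlap. UBXN8, which tethers the extraction ATPase VCP to the ER membrane, had a log2 fold change of -0.38 (edgeR adjusted p = 0.13, and 0.042 with the block). ERLEC1, an ER lectin of the same degradation route, was at 93.04, 109.7 and 102.5 CPM and then at 79.3, 90.2 and 81.5 CPM, without overlap (log2 fold change -0.28, edgeR adjusted p = 0.18, and 0.017 with the block). Of 29 other folding enzymes none passed and 2 were lower with the block. These were ERO1A, the oxidase that recharges disulfide isomerases (24.1 ± 1.04 and 18.3 ± 2.47 CPM, SD, n = 3 each, adjusted p = 0.16 by edgeR, and 0.025 with the block), and FKBP10, a collagen-folding isomerase gene (log2 fold change -0.27, adjusted p = 0.16 and 0.019).

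Of 29 genes of signal sequence handling and N-glycan transfer none passed, the median on the log2 scale was -0.06, and 1 was higher and 2 were lower with the block. SEC11C, a catalytic subunit of signal peptidase, had a log2 fold change of -0.33 (edgeR adjusted p = 0.075, and 0.0074 with the block). STT3B, a catalytic subunit of oligosaccharyltransferase, had one of -0.25, and its small subunit gene OST4 one of 0.25 (edgeR adjusted p with the block 0.015 and 0.033). Of 15 other UPR signalling genes none passed in either fit, with a median of -0.02. MBTPS1, the protease that first cuts ATF6, had a log2 fold change of -0.18 and NFYC, a subunit of the NF-Y factor that binds CCAAT, one of -0.14 (edgeR adjusted p = 0.40 and 0.51).

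**Figure D5:**
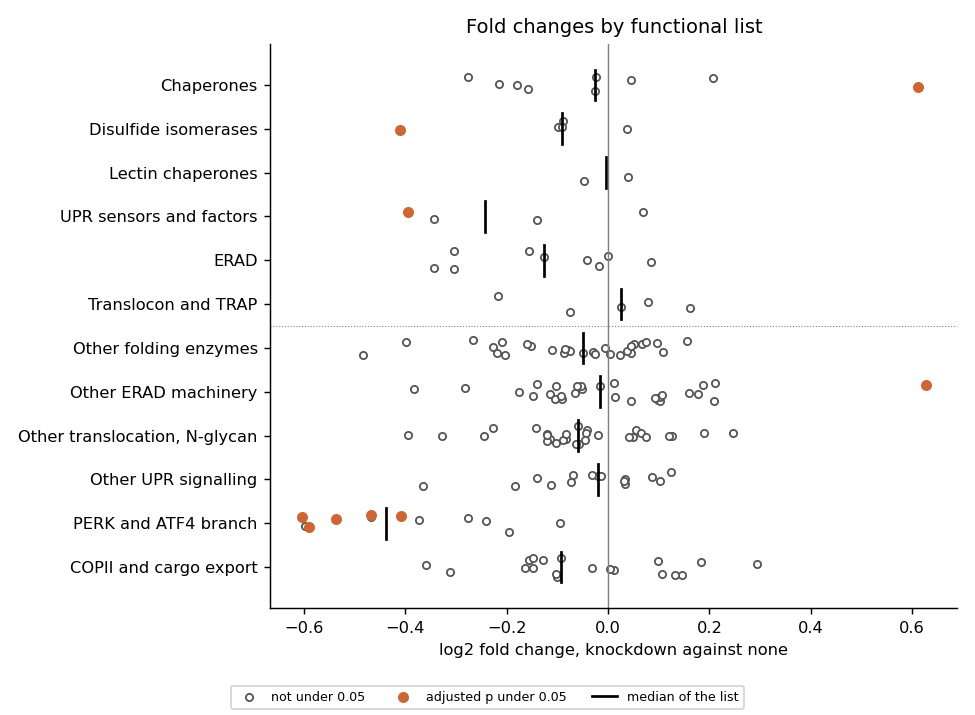
Log2 fold changes by functional list, with the 6 groups of members above the dotted line and 6 lists of neighbouring genes below it. Each point is a gene, filled where the edgeR adjusted p is under 0.05, and the black bar is the median of the list. All 12 genes of the PERK and ATF4 branch lie to the left of 0, where the other medians lie between -0.24 and 0.03.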

How the data were processed

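RNA sequencing libraries were made from Trizol-extracted RNA by a contract laboratory using NEBNext Ultra II, according to the labels. The submitters' processing notes name bcl2fastq, STAR 2.5, featureCounts of Subread 1.6.5, edgeR 3.20.8 and build hg38. Per the file headers, the authors deposited counts of reads for each gene, log2 CPM per library, and log2 fold changes with p-values and false discovery rates of their own comparison. Which annotation, strand setting and low-count filter the authors used is not given in the sources used here. The coordinates in the table were not used, since some rows (115 genes) name haplotypes that do not carry hg38 names. Positions come from GENCODE 29, and promoters from RefSeq.

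Here R 4.3.3 and edgeR 4.0.16 took the deposited counts. Genes were kept by filterByExpr (minimum 10, total 15), scaled by TMM and fitted by robust quasi-likelihood on group alone. P-values were adjusted by Benjamini-Hochberg over 12768 genes, with a threshold of 0.05. CPM are TMM-scaled, RPKM use the gene length in the table, and per-library log2 values add 0.5 CPM. The standard error is the log2 fold change over the square root of F, and the 95% interval uses the total degrees of freedom of the fit. A count of 3 is worth 0.193 to 0.376 CPM, and members had 95 to 11839 reads in a library. On counts simulated for this comparison and fitted on 12766 genes, 59.6% of genes changed 1.5-fold and 91% of genes changed 2-fold were recovered, and 6 of 12567 unchanged genes were called. The simulated counts were drawn independently for each gene, without the deviation that genes share in replicate 2. These figures therefore need not hold for the libraries themselves.

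Replicate numbers are shared by the groups. Deviations from the group means correlated between equally numbered cultures by 0.35, 0.46 and 0.17 across all genes, each above 0.1, so the numbers were treated as pairs and the blocked fit is given where it changes a call. Unequal numbers also correlated by more than the third pair, at 0.24 (no-knockdown 3 with knockdown 1) and 0.20 (1 with 3). Across the 34 members alone the equally numbered cultures correlated by 0.08, -0.01 and -0.16. No replicates agreed within sampling noise (chi-square per degree of freedom 1.73 to 20.4).

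The members and gene lists were chosen with earlier results of these data known. Full values are given for HSPA5, HSP90B1, XBP1, ERN1, ATF6, DNAJB9, HERPUD1 and SDF2L1, for every member past 0.05 in either fit and for the extremes. In each neighbouring list the 2 genes with the smallest p and every called gene are named, some with a log2 fold change and adjusted p only. Other named genes were picked after their values were seen. Alternatives were DESeq2 1.42.0, limma-voom (limma 3.58.1), other scaling, other filters, the replicate block and leaving out libraries.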

Additional observations from a re-analysis of the deposited data

How the results depend on the processing

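The calls of DNAJB9, DNAJC10 and XBP1 held with DESeq2, limma-voom, DESeq2 size factors, library totals only, no filter on low counts, a count of at least 50 in 3 libraries, the replicate block, and without replicate 2 of either group or of both. They were lost without replicate 1 or 3 of either group. With the replicate block 5 members were lower (HERPUD1, EDEM1 and SEL1L added), no other member's call changed, and 1061 genes were called in all. With the block and without pair 2, 3 members were higher and 8 lower of 2391 genes called, and without pair 2 and without the block, a fit added after seeing the data, 7 members were lower of 2141. DESeq2 called 305 genes. Leaving out 1 library gave 0 to 1 members higher, 0 to 3 lower and 24 to 445 genes in all. The log2 fold change of HSPA5 changed sign without pair 2, to 0.073 with the block and 0.072 without it. The members' median stayed between -0.09 and -0.05 in all 15 alternatives. Fits without a pair rest on 4 libraries, and why they call more genes was not tested.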

Other observations

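Genes that carry folded cargo out of the ER were also read. Of 19 genes of the COPII coat and its cargo receptors none passed in edgeR's fit with group only, and 1 was higher with the replicate block, with a median log2 fold change of -0.09. It was SEC23A, which encodes an inner coat subunit, at 361, 376 and 364 CPM without knockdown and 475, 430 and 445 CPM with it, without overlap (log2 fold change 0.29, edgeR adjusted p = 0.087, and 0.010 with the block). Its paralog SEC23B was at 347, 366 and 348 CPM and then at 419, 395 and 392 CPM, also without overlap (log2 fold change 0.18, edgeR adjusted p = 0.28).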
